A study of Homo sapiens with 6 samples.

Results

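Antisense RNAs are transcripts read from the DNA strand opposite a named gene, and most of them are long, spliced and noncoding. The members described here are the rows of the deposited gene table whose symbol ends in -AS and a number and that were selected on depth, by at least 30 raw counts in at least 3 of 6 libraries. They number 228 of 1440 rows with such a symbol, in a table of 60612 genes. The sense partner, given for comparison, is the gene whose symbol stands before -AS. The member choice used counts but no fold change. Of the members 224 had a partner row, with 219 distinct partners, and DARS-AS1, FAM198B-AS1, HOXA-AS2 and RPARP-AS1 had none. The count minimum can be met by the libraries of either group alone. Tests are therefore printed for the 140 members with a mean of at least 60 counts over the 6 libraries. Exceptions are 2 that had 30 counts in no control shRNA library, and those 2 and the other 88 are described by their values. Counts of calls include those 2. For 5 others of the 140 (CCDC18-AS1, STARD4-AS1, TMEM161B-AS1, RUSC1-AS1 and HNF4A-AS1), only the higher group had 30 counts in all 3 of its libraries. The choice of members may bear on their direction too, and their tests carry that limit.

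The cells were HepG2, a human liver cancer line of epithelial type whose genotype the labels give as wild type. In 3 libraries the cells had been infected with a lentivirus carrying an shRNA against circPRKAA1, a circular RNA made from exons of PRKAA1, which encodes a catalytic subunit of the energy sensor AMPK. In the other 3 libraries the lentivirus carried a control shRNA, so both groups had been infected and both had been cultured without another treatment that the labels name. The series title places the circle upstream of Ku80, Ku70 and SREBP1 and of fatty acid synthesis. The circle has no row in the deposited table, so its own level was not measured here. The labels do not tell separate cultures from repeated libraries of 1 culture, so a p-value here speaks of the scatter among these libraries, which may be technical.

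Antisense genes sit beside their partners in a few arrangements. In head to head pairs the transcription starts lie close together on opposite strands, often at a shared CpG-rich promoter that fires in both directions. Such pairs were taken here by the distance of the starts alone. Their gene bodies may overlap, as by 722 bases for LBX2-AS1 and LBX2, or not, as for SSTR5-AS1 and SSTR5. In nested pairs the antisense gene lies inside the body of its partner or around it, and in other pairs the ends overlap. Some antisense RNAs act on the neighbouring gene by recruiting chromatin regulators or by pairing with its mRNA, some act elsewhere in the cell, and many are removed soon after synthesis by the nuclear RNA exosome.

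Promoter windows show how closely some of these pairs are placed. The sequences are from RefSeq (GRCh38.p14) and cover 300 bases, 250 before the start of the gene and 50 after it, read 5′ to 3′ on the strand of the gene. Such windows were found for 172 members and for 184 partners. The pair of ZNF674-AS1 and ZNF674, a zinc finger gene, is shown because its windows share 168 bases while the transcripts changed in opposite directions. ZNF674-AS1 lies at chrX:46545240-46545539, plus strand, and ZNF674 at chrX:46545372-46545671, minus strand. Capitals mark the shared bases.
ZNF674-AS1: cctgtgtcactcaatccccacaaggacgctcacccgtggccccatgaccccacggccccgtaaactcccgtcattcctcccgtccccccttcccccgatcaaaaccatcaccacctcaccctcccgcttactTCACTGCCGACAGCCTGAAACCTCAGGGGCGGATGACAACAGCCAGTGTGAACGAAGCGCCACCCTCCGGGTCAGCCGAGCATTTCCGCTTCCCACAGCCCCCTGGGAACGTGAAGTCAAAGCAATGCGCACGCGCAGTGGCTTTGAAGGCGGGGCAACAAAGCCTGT
ZNF674: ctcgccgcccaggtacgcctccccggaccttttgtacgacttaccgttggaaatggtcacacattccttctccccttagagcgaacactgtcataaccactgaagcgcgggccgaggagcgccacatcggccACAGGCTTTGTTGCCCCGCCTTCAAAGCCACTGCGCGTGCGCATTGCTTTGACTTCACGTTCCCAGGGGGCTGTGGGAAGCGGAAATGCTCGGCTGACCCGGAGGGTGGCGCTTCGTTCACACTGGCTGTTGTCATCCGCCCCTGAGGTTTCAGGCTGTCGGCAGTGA

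The pair of SSTR5-AS1 and SSTR5, a receptor for somatostatin, is shown as a contrast, since its windows share 194 bases and both transcripts fell by nearly the same amount. SSTR5-AS1 lies at chr16:1078682-1078981, minus strand, and SSTR5 at chr16:1078576-1078875, plus strand. Capitals again mark the shared bases.
SSTR5-AS1: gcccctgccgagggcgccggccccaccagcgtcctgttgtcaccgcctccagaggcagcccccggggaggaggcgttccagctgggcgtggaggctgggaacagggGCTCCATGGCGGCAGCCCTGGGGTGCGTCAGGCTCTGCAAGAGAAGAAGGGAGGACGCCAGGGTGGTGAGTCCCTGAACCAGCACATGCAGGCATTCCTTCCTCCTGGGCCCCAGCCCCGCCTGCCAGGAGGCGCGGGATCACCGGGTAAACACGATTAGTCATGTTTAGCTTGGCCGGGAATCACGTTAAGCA
SSTR5: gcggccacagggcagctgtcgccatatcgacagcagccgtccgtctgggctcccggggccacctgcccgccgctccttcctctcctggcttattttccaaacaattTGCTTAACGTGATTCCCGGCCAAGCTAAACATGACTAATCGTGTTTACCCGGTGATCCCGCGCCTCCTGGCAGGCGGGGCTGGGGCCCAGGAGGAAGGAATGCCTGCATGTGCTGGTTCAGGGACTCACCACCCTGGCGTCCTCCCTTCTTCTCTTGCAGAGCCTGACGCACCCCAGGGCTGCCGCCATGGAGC

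THAP9-AS1 and THAP9 are shown because both rose while their windows share 0 bases. In the deposited coordinates this pair is head to head, with starts 276 bases apart and gene bodies that overlap by 277 bases. Windows without shared bases therefore do not mean distant starts here. THAP9 encodes a DNA-binding protein related to a transposase. THAP9-AS1 lies at chr4:82900867-82901166, minus strand, and THAP9 at chr4:82900485-82900784, plus strand. The window of SREBF2 at chr22:41832855-41833154, plus strand, is shown for the lipid axis of the study, since SREBF2 encodes SREBP2, the sterol-regulated factor related to SREBP1. In these windows capitals mark motifs that were searched on both strands.
THAP9-AS1: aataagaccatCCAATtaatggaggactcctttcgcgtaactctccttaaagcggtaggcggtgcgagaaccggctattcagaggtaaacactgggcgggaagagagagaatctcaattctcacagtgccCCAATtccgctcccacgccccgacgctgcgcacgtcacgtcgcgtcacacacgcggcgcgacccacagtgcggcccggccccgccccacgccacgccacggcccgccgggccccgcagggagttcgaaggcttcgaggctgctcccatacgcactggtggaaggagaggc
THAP9: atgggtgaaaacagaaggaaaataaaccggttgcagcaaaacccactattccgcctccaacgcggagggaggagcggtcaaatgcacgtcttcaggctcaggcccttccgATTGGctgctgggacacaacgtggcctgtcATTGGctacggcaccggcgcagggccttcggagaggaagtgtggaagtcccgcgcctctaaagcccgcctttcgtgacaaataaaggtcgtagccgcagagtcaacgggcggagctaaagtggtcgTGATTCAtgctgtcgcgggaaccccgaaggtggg
SREBF2: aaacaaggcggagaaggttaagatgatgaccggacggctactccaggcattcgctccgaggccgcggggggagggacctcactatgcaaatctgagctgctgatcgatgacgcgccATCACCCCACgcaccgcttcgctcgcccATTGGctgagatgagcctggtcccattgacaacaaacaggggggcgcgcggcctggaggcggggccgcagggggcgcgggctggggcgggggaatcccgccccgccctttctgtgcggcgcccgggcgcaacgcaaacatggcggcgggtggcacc

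The motifs were the ETS site CCGGAAG, the AP-1 site TGANTCA, the CRE TGACGTCA, the NF-Y box CCAAT, the TATA motif TATAAA, and by name the NRF1 site and the sterol element, whose letters are the longer capital run of the SREBF2 window. Both THAP9 windows hold NF-Y boxes and that of THAP9 also an AP-1 site, while the SREBF2 window holds the sterol element and an NF-Y box. Neither window of the ZNF674 pair or of the SSTR5 pair holds any of these letters. The sterol element was found in 0% of the members' windows, in 1.09% of the partners' windows (SREBF2 and NPSR1) and in 0.0456% of all 35116 windows. NRF1 sites were in 4.65% of members' windows, against 1.63% of partners' windows and 1.24% of all windows. ETS sites were in 15.7% of members' and 15.8% of partners' windows, against 10.3% of all. The TATA motif was in 5.23% of members' and 7.61% of partners' windows, against 11.5% of all, and the AP-1 site in 3.49% and 4.89%, against 7.71%. The CRE was in 2.33% of members' and 4.89% of partners' windows, against 1.85% of all, and NF-Y boxes were in 33.7% and 33.2%, against 34.6%. The median number of CpG pairs per window was 21 for members and 26.5 for partners, against 14 for all windows. A match describes letters in a window, and no binding was measured.

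Depth was 17047886, 17549690 and 16348435 counts in the circPRKAA1 shRNA libraries and 16284262, 20282496 and 19126452 in the control shRNA libraries. A count was present for 23978 ± 202 genes in circPRKAA1 shRNA libraries and 21736 ± 604 in control shRNA libraries (SD, n = 3 each). Replicates differed by more than counting noise, with chi-square values of 3.86 to 16.3 per degree of freedom. The 10 hepatocyte markers were all counted in every library, with albumin at 6808 ± 77.0 CPM in circPRKAA1 shRNA libraries and 6038 ± 882 CPM in control shRNA libraries (counts scaled to library size by TMM, SD, n = 3 each). Of these markers 2 rose (APOB by 0.66, FGB by 0.59 in log2), 5 fell (HNF4A by 1.49, APOA1 by 1.10, APOA2 by 0.56, TTR by 0.48, AFP by 0.33) and 3 did not pass in edgeR, and their part in the results on antisense RNAs was not tested. Of 8 markers of other cell types, those of leukocytes (PTPRC), vessels (CDH5) and fibroblasts (COL1A1, COL1A2) were at or near 0, with at most 7 counts in a library, while PECAM1 and PDGFRB were at a few CPM, EPCAM was abundant and KRT7 was at 0.0378 CPM after circPRKAA1 shRNA and 1.05 CPM in control shRNA libraries.

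Antisense RNAs as a class took a small share of all counts, and that share was higher after circPRKAA1 shRNA. All 1440 rows together, with no minimum, held 0.220, 0.204 and 0.216% of counts in the circPRKAA1 shRNA libraries, against 0.168, 0.183 and 0.176% in the control shRNA libraries. The groups did not overlap. Such shares rest on library totals, the scaling under which the median log2 fold change of all tested genes was 0.25, against 0.05 under TMM. For the 140 members with a mean of at least 60 counts these medians were 0.21 and 0.02. The part of the scaling in the higher share was not tested. Fewer cells making an RNA and less RNA per cell cannot be told apart in such bulk libraries. The number of these rows with a count was 745, 724 and 726 in circPRKAA1 shRNA libraries and 608, 663 and 624 in control shRNA libraries. The larger number of detected genes of every kind, given above, moved in the same direction, and its part in this difference was not tested. In no library was a count present for 533 of the rows, while 136 had counts in circPRKAA1 shRNA libraries only and 41 in control shRNA libraries only.

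How reads on paired strands were assigned bears on every value here, and the strand setting of the counting is not given in the sources used here. Reads from exons that both strands share can then not be told apart. Among -AS rows whose partner averaged at least 500 counts, 11 lie wholly inside exons of the partner, and 0 of these had a count in any library. DDIT4-AS1 is an example, at 0 counts beside 3547 counts on average for DDIT4. Of 164 such rows that share no exonic base with the partner, 140 had a count. In between, 168 of 178 rows with up to 20% of their exons inside the partner's had a count, 65 of 71 with 20 to 50%, and 22 of 28 with more. The shared stretch of each named pair is therefore given below where it is large.

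Per base of exon, antisense RNAs were scarcer than their partners. The median member had 1.16 FPKM (counts scaled to exonic length and library total, mean of the group means), and the median partner 4.69 FPKM. Levels of members ran up to 33.9 FPKM for BOK-AS1. The antisense RNA was below its partner in FPKM in all 6 libraries in 144 of 224 pairs and above it in all 6 in 45. Among these 45 were FGD5-AS1, whose partner FGD5 had 0 to 6 counts per library, and SH3BP5-AS1, whose partner had 0 to 3. In 2 pairs, CCDC18 among them, the antisense RNA exceeded the partner in all circPRKAA1 shRNA libraries and in no control shRNA library. The reverse order held for 9, namely ASH1L-AS1, LGALS8-AS1, PITPNA-AS1, RNASEH1-AS1, ST20-AS1, ST7-AS1, TMEM44-AS1, ZBED5-AS1 and ZEB1-AS1.

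Antisense RNAs changed in both directions after circPRKAA1 shRNA. Of the 140 members with a mean of at least 60 counts, 40 rose (28.6%) and 48 fell (34.3%) at an adjusted p under 0.05 in edgeR's quasi-likelihood test, and 52 did not pass. Among all 11472 genes with such a mean, 73.1% passed, 35.4% upward and 37.7% downward, and among all 14990 tested genes 68.4% passed, 36.1% upward and 32.4% downward. The members' shares in each direction, and 62.9% in all, were below those of genes with such a mean, while the share that fell was above that of all tested genes, and neither difference was tested. Of the members that rose, 2 (SH3BP5-AS1 and SPRY4-AS1) had reached 30 counts in circPRKAA1 shRNA libraries only, so that the choice of members bears on their direction. It may also bear on CCDC18-AS1, STARD4-AS1, TMEM161B-AS1 and RUSC1-AS1, which had not reached 30 counts in every control shRNA library. The median log2 fold change of the 140 members was 0.02, against −0.02 for all genes with such a mean. Changes of at least 2-fold were called for 14 that rose and 15 that fell, and the log2 fold changes spanned −1.98 to 3.04. SH3BP5-AS1 and SPRY4-AS1 are counted among the 40 and the 14, and the 3.04 is that of SH3BP5-AS1. Without these 2 the highest value was 2.67, for CCDC18-AS1. The CPM of the groups did not overlap for 41 members that were higher and 50 that were lower after circPRKAA1 shRNA, against 37.2% and 39.6% of all genes with such a mean, or 76.7% in either direction. Other long noncoding genes with such a mean (355) had 99 that rose, 140 that fell and a median of −0.11.

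The balance of rises and falls rests on the scaling. TMM put the median log2 fold change of all tested genes at 0.05, library totals at 0.25, TPM scaling at 0.34, and offsets for GC content and length at −0.09. Rises made up 45.5% of called members under TMM, 71.0% under TPM scaling, 63.4% under library totals, 34.8% under offsets and 32.6% under quantile normalization. Over all called genes of any tested depth that share was 52.7% under TMM, 71.6% under TPM scaling and 65.7% under library totals. It was 41.9% under offsets and 48.6% under quantile normalization. Of genes with a mean of at least 60 counts, 4057 rose and 4330 fell under TMM. These numbers were 5793 and 2645 under TPM scaling and 5265 and 3194 under library totals. They were 3109 and 5567 under offsets and 4035 and 4280 under quantile normalization. The shares over all called genes are therefore not at like depth. The members' median lay 0.04 above that of all genes of like depth under each of TMM, library totals and TPM scaling. It lay −0.01 from it with offsets and −0.17 from it with quantile normalization.

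The largest rises included those of CCDC18-AS1, TMEM161B-AS1, STARD4-AS1, ZNF337-AS1, MAGI2-AS3, THAP9-AS1 and RUSC1-AS1. In each, all circPRKAA1 shRNA libraries lay above all control shRNA libraries, and each passed the test under all 15 alternatives of scaling, model and left-out library. These members were chosen by the size of their called change in the same libraries, so such separation follows largely from the choice.

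CCDC18-AS1 (chr1:93262186-93346025) had 11.7, 10.0 and 11.8 CPM in circPRKAA1 shRNA libraries and 0.938, 2.71 and 1.46 CPM in control shRNA libraries. Its log2 fold change was a rise of 2.67 (SE 0.23, edgeR adjusted p = 5.71e-08), and the control libraries differed from each other more than those with circPRKAA1 shRNA did. CCDC18 had 5.87, 5.20 and 5.21 CPM against 4.55, 5.63 and 5.49 CPM, with overlapping groups and a log2 fold change of 0.05 (SE 0.16, edgeR adjusted p = 0.792). The pair shares only 72 exonic bases.

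SH3BP5-AS1 and SPRY4-AS1 are given by their values alone, since their direction is partly set by the count minimum. SH3BP5-AS1 (chr3:15254184-15264515) had 141, 104 and 129 counts in circPRKAA1 shRNA libraries and 12, 14 and 17 in control shRNA libraries. Its partner SH3BP5, an exchange factor for RAB11, had 2, 3 and 2 counts against 1, 0 and 0, although 34.4% of the antisense exons lie inside its exons. SPRY4-AS1 (chr5:142325293-142672001), which shares no exonic base with the other strand, had 6.80, 6.83 and 6.51 CPM against 1.34, 1.20 and 1.18 CPM. The groups overlapped for neither antisense RNA. SPRY4, a feedback inhibitor of receptor tyrosine kinase signalling to ERK that starts 1162 bases away, had 83.0, 91.2 and 93.6 CPM in circPRKAA1 shRNA libraries and 57.1, 55.4 and 56.7 CPM in control shRNA libraries, and rose by 0.66 (SE 0.08, edgeR adjusted p = 1.41e-06).

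TMEM161B-AS1 (14.5, 9.43 and 11.6 CPM in circPRKAA1 shRNA libraries, 1.74, 3.13 and 3.59 CPM in control shRNA libraries) rose by 2.05 (SE 0.21, edgeR adjusted p = 4.29e-07) and TMEM161B by 1.27 (SE 0.16, edgeR adjusted p = 2.80e-06). Under the offsets these were 1.37 and 0.42. STARD4-AS1 had 5.93, 5.31 and 5.32 CPM in circPRKAA1 shRNA libraries and 1.74, 1.67 and 1.40 CPM in control shRNA libraries, a rise of 1.78 (SE 0.19, edgeR adjusted p = 5.97e-07). STARD4, a cytosolic sterol transfer protein, had 46.1, 47.1 and 44.5 CPM against 13.9, 21.5 and 18.5 CPM and rose by 1.34 (SE 0.12, edgeR adjusted p = 9.38e-08), or 0.58 with offsets. In both pairs all circPRKAA1 shRNA libraries lay above all control shRNA libraries.

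THAP9-AS1 and THAP9, whose windows are printed above, had 17.3, 14.5 and 17.1 CPM and 9.08, 6.34 and 6.97 CPM in circPRKAA1 shRNA libraries, against 6.56, 7.46 and 5.995 CPM and 2.28, 2.76 and 2.97 CPM in control shRNA libraries. They rose by 1.29 (SE 0.13, edgeR adjusted p = 3.28e-07) and 1.47 (SE 0.19, edgeR adjusted p = 3.55e-06). ZNF337-AS1 and ZNF337, a zinc finger gene, rose by 1.31 and 1.32, and 53.2% of the antisense exons lie inside exons of the partner, so these 2 values may not be separate measurements. MAGI2-AS3 was among the abundant members, with 55.4, 57.6 and 56.7 CPM against 17.6, 27.4 and 23.3 CPM. Its rise of 1.31 (SE 0.12, edgeR adjusted p = 1.05e-07) was 0.30 with offsets, and its GC content, 34.0%, was the lowest among members that rose. MAGI2, a scaffold protein of cell junctions and synapses, rose by 0.88 (SE 0.22, edgeR adjusted p = 0.00234) with 70, 54 and 63 counts in circPRKAA1 shRNA libraries, against 22, 35 and 40 in control shRNA libraries, a call lost in 2 alternatives.

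**Figure D1:**
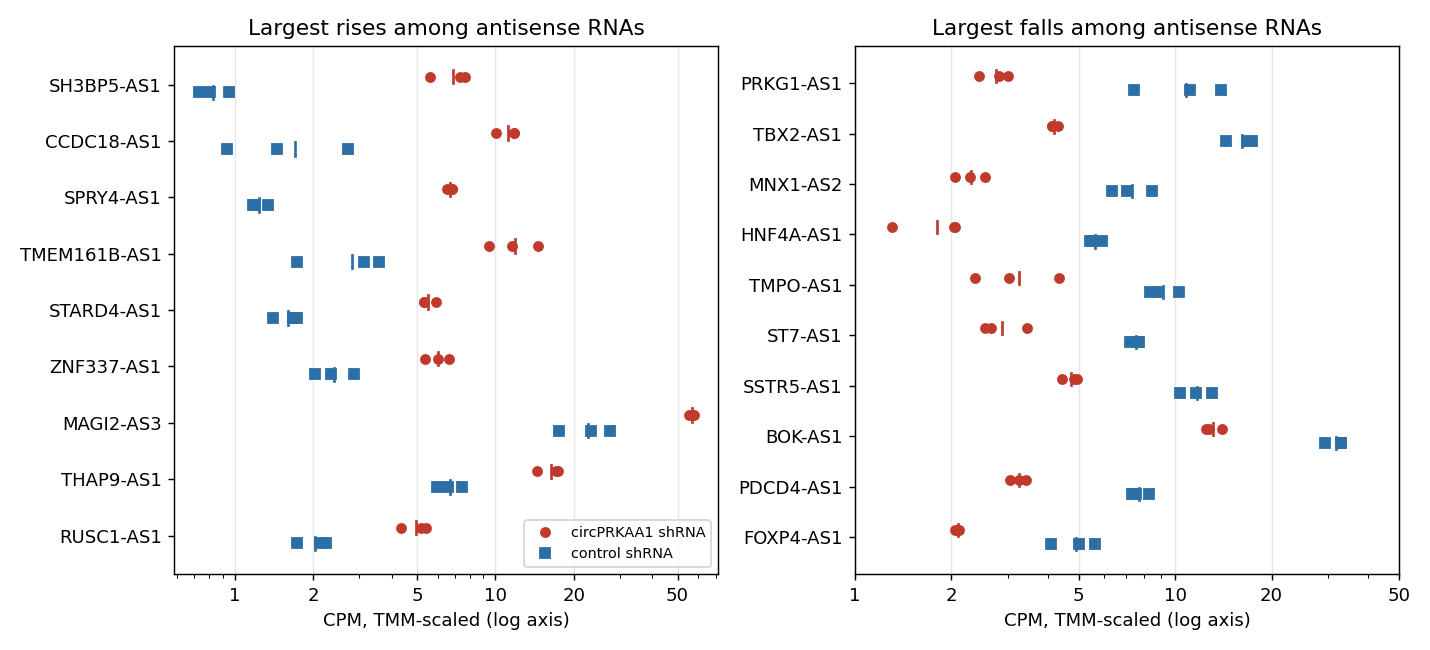
Level in CPM (TMM-scaled counts, log axis) of 9 antisense RNAs among the largest rises (left) and the 10 with the largest falls (right), with 1 point per library and a tick at the mean of 3 libraries. In every row the circPRKAA1 shRNA points (circles) and control shRNA points (squares) do not overlap, as for THAP9-AS1 at 14.5 to 17.3 against 5.995 to 7.46 CPM. Rows were chosen by the size of called changes in these same libraries, so this separation follows largely from the choice. SH3BP5-AS1 and SPRY4-AS1 reached the count minimum in circPRKAA1 shRNA libraries only.

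The 10 largest falls were PRKG1-AS1, TBX2-AS1, MNX1-AS2, HNF4A-AS1, TMPO-AS1, ST7-AS1, SSTR5-AS1, BOK-AS1, PDCD4-AS1 and FOXP4-AS1. Each passed under all 15 alternatives, and in 9 of these the partner also fell, although the fall of PRKG1 was lost in 7 alternatives. TBX2-AS1 (chr17:61393456-61411555) had 4.30, 4.12 and 4.13 CPM in circPRKAA1 shRNA libraries and 17.3, 14.4 and 16.8 CPM in control shRNA libraries, a fall of 1.95 (SE 0.13, edgeR adjusted p = 4.17e-09). TBX2, a T-box transcriptional repressor, had 6.80, 7.64 and 6.74 CPM against 22.4, 23.6 and 24.7 CPM and fell by 1.74 (SE 0.11, edgeR adjusted p = 2.54e-09). The antisense gene spans the whole of TBX2 on the other strand and shares no exonic base with the other strand.

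HNF4A-AS1 (chr20:44372746-44395706) lies inside the locus of HNF4A without a shared exonic base, HNF4A being the nuclear receptor that maintains hepatocyte gene expression. It had 24, 38 and 36 counts in circPRKAA1 shRNA libraries and 88, 104 and 98 in control shRNA libraries, a fall of 1.63 (SE 0.20, edgeR adjusted p = 2.71e-06). HNF4A had 144, 157 and 151 CPM against 445, 407 and 419 CPM and fell by 1.49 (SE 0.07, edgeR adjusted p = 9.87e-11). Counts of HNF4A-AS1 per 100 of HNF4A were 0.907, 1.31 and 1.35 in circPRKAA1 shRNA libraries and 1.32, 1.33 and 1.31 in control shRNA libraries, with overlapping groups. MNX1-AS2 and MNX1, a homeobox factor, fell by 1.67 (SE 0.18, edgeR adjusted p = 6.18e-07) and 1.49 (SE 0.12, edgeR adjusted p = 1.78e-08).

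SSTR5-AS1 and SSTR5 start 50 bases apart and share no exonic base with each other, although 21.9% of the antisense exons meet exons of another gene on the other strand. SSTR5-AS1 had 4.95, 4.82 and 4.42 CPM in circPRKAA1 shRNA libraries, against 13.1, 10.3 and 11.7 CPM in control shRNA libraries, and SSTR5 had 8.48, 9.32 and 7.48 CPM, against 22.0, 19.97 and 20.3 CPM. Both fell by 1.30 (SE 0.14 and 0.12, edgeR adjusted p = 7.10e-07 and 9.11e-08). Antisense counts per 100 sense counts were 58.3, 51.7 and 59.1 in circPRKAA1 shRNA libraries and 59.3, 51.7 and 57.3 in control shRNA libraries, so the ratio of this pair did not separate the groups.

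BOK-AS1 and BOK, a member of the BCL2 family, fell by 1.27 (SE 0.10, edgeR adjusted p = 2.68e-08) and 1.21 (SE 0.09, edgeR adjusted p = 1.03e-08), with 31.3% of the antisense exons inside exons of the partner. TMPO-AS1 fell by 1.48 (SE 0.19, edgeR adjusted p = 3.93e-06), and TMPO, which encodes a protein of the nuclear lamina, by 0.61 (SE 0.09, edgeR adjusted p = 2.02e-05). ST7-AS1 and FOXP4-AS1 fell by 1.38 and 1.23, beside falls of 0.58 in ST7, lost with TPM scaling (−0.29), and 0.81 in the forkhead gene FOXP4. PRKG1-AS1 had 2.45, 2.82 and 3.00 CPM in circPRKAA1 shRNA libraries and 7.43, 13.9 and 11.1 CPM in control shRNA libraries, a fall of 1.98 (SE 0.21, edgeR adjusted p = 5.18e-07). Its control libraries ranged widely, and the groups did not overlap. PRKG1, a cGMP-dependent kinase, fell by 0.93 (SE 0.39, edgeR adjusted p = 0.0423) with overlapping groups of 14, 23 and 11 counts in circPRKAA1 shRNA libraries, against 13, 49 and 27 in control shRNA libraries.

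PDCD4-AS1 was the exception among the falls. It had 3.43, 3.25 and 3.06 CPM in circPRKAA1 shRNA libraries and 8.30, 7.56 and 7.34 CPM in control shRNA libraries, a fall of 1.25 (SE 0.15, edgeR adjusted p = 2.62e-06). PDCD4, which restrains translation by binding the helicase eIF4A, had 98.5, 89.3 and 97.6 CPM against 67.3, 76.4 and 74.1 CPM and rose by 0.39 (SE 0.08, edgeR adjusted p = 0.000401), but was at −0.11 under the offsets. The antisense RNA shares no exonic base with the other strand, and its own value was −0.93 with offsets.

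The 10 members of highest CPM, a measure not corrected for length, were OIP5-AS1, FGD5-AS1, MAGI2-AS3, GABPB1-AS1, LBX2-AS1, DHRS4-AS1, NUTM2A-AS1, MRPL20-AS1, RNASEH1-AS1 and TP73-AS1. OIP5-AS1, also called cyrano, had 99.9, 94.2 and 98.2 CPM in circPRKAA1 shRNA libraries and 81.7, 104 and 93.1 CPM in control shRNA libraries. The groups overlapped, at a log2 difference of 0.07 (SE 0.09, edgeR adjusted p = 0.495) or, under offsets, −0.65. Its partner OIP5, which helps to load the centromeric histone CENP-A, had 8.43, 9.21 and 6.74 CPM against 15.6, 18.4 and 16.4 CPM and fell by 1.05 (SE 0.13, edgeR adjusted p = 3.58e-06). FGD5-AS1 had 75.2, 76.9 and 76.5 CPM against 73.3, 79.3 and 78.4 CPM (log2 −0.02, SE 0.07, edgeR adjusted p = 0.860).

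Among the other abundant members, 3 fell. LBX2-AS1 had 25.1, 25.2 and 26.5 CPM in circPRKAA1 shRNA libraries and 59.5, 47.6 and 56.5 CPM in control shRNA libraries, a fall of 1.09 (SE 0.10, edgeR adjusted p = 6.98e-08), and the homeobox gene LBX2 fell by 1.13 (SE 0.12, edgeR adjusted p = 6.30e-07). Of the antisense exons 31.2% lie inside those of LBX2. RNASEH1-AS1 had 20.6, 20.2 and 18.9 CPM against 37.7, 39.5 and 37.9 CPM and fell by 0.95 (SE 0.09, edgeR adjusted p = 1.71e-07). RNASEH1, which cuts RNA in RNA-DNA hybrids, had 48.2, 47.0 and 49.0 CPM against 48.6, 53.0 and 48.4 CPM, with overlapping groups (log2 −0.06, SE 0.08, edgeR adjusted p = 0.536). MRPL20-AS1 and MRPL20, a protein of the mitochondrial ribosome, fell by 0.73 (SE 0.09, edgeR adjusted p = 3.97e-06) and 0.84 (SE 0.08, edgeR adjusted p = 2.85e-07).

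GABPB1-AS1 had 50.6, 45.2 and 52.2 CPM in circPRKAA1 shRNA libraries and 21.1, 29.2 and 26.1 CPM in control shRNA libraries, a rise of 0.95 (SE 0.11, edgeR adjusted p = 1.37e-06), or 0.36 with offsets. GABPB1, a subunit of an ETS-family transcription factor, had 16.7, 15.9 and 14.05 CPM against 16.2, 20.9 and 20.2 CPM. Its fall of 0.30 (SE 0.12, edgeR adjusted p = 0.0355) comes with overlapping groups and was lost in 7 of 15 alternatives. NUTM2A-AS1 rose by 0.53 (SE 0.09, edgeR adjusted p = 0.000113), but was at 0.04 and lost its call with offsets (edgeR adjusted p = 0.680, the highest of its 15 alternatives). DHRS4-AS1 had a log2 fold change of 0.15 (SE 0.09, edgeR adjusted p = 0.141) and TP73-AS1 of −0.20 (SE 0.10, edgeR adjusted p = 0.0937). Their partners DHRS4, a retinal reductase, and TP73, a relative of p53, fell by 0.43 and 0.89, the fall of DHRS4 being lost with TPM scaling (−0.13). NUTM2A and DHRS4 have near-identical copies in the genome, so counts at these loci may be split between copies.

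Within pairs, the antisense RNA and its partner more often changed together than apart, but loosely. Both genes were tested in 126 pairs with a well-counted antisense RNA. Across these pairs the log2 fold changes had a Pearson correlation of 0.32 and a Spearman correlation of 0.29. These are given as a description, since both genes come from the same libraries. Both genes of a pair may also share base composition, which was not compared. Both passed the test in 63 pairs, of which 14 rose together and 29 fell together. In 11 the antisense RNA rose while its partner fell, and in 9 it fell while its partner rose. Partners of well-counted members (122 tested) had 38 that rose, 56 that fell and a median log2 fold change of −0.17, against 35.4% and 37.7% of all genes of like depth. Without any shared exonic base the correlation was 0.39 (43 pairs), and with shared bases it was 0.26 (83 pairs).

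**Figure D2:**
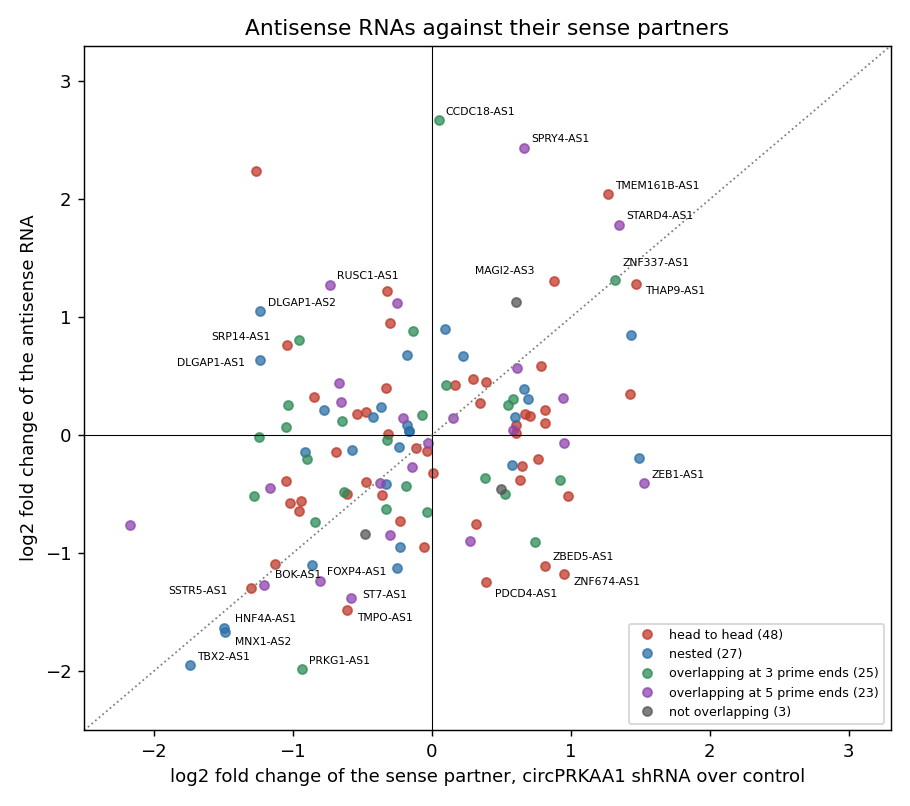
Log2 fold change (circPRKAA1 shRNA over control shRNA) of each sense partner on the horizontal axis and of its antisense RNA on the vertical axis, for 126 pairs in which both were tested, coloured by arrangement, with the dotted line where both are equal. Pairs such as SSTR5-AS1 lie on the line, whereas RUSC1-AS1 (1.28 against −0.73) and ZNF674-AS1 (−1.17 against 0.95) lie in the quadrants of opposite sign.

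Antisense to sense ratios were computed for pairs with a partner of at least 60 counts on average. Of 110 such pairs, the ratio was higher in all circPRKAA1 shRNA libraries than in any control shRNA library in 40, lower in 32 and overlapping in 38. For comparison, the levels of 76.7% of single genes with such a mean did not overlap between groups. The pairs in which both genes passed with opposite signs include 7 named here among those with the largest difference between both log2 fold changes. RUSC1-AS1 rose by 1.28 (SE 0.19, edgeR adjusted p = 2.35e-05), while the adaptor gene RUSC1 fell by 0.73 (SE 0.10, edgeR adjusted p = 9.66e-06). Its ratio was 21.7, 21.1 and 20.5 antisense counts per 100 sense counts in circPRKAA1 shRNA libraries, against 4.01, 6.17 and 5.57 in control shRNA libraries.

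SRP14-AS1 starts 61 bases from SRP14, a subunit of the signal recognition particle, and shares no exonic base with the other strand. It had 9.08, 8.46 and 6.91 CPM in circPRKAA1 shRNA libraries and 4.55, 5.11 and 4.71 CPM in control shRNA libraries, a rise of 0.76 (SE 0.15, edgeR adjusted p = 0.000347). These values held no overlap between groups. SRP14 had 78.9, 73.6 and 72.5 CPM against 161, 158 and 145 CPM and fell by 1.04 (SE 0.08, edgeR adjusted p = 7.37e-09).

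ZNF674-AS1, whose start lies 19 bases from that of ZNF674, had 3.15, 4.34 and 3.51 CPM in circPRKAA1 shRNA libraries and 7.50, 8.19 and 9.13 CPM in control shRNA libraries. It fell by 1.17 (SE 0.16, edgeR adjusted p = 9.49e-06). ZNF674 had 4.62, 3.85 and 4.19 CPM against 2.14, 2.19 and 2.19 CPM and rose by 0.95 (SE 0.19, edgeR adjusted p = 0.000332), or 0.47 under the offsets. Thus the more abundant transcript in counts was ZNF674 in 2 of 3 circPRKAA1 shRNA libraries, at 68.2, 113 and 83.8 antisense counts per 100 sense counts, and ZNF674-AS1 in all 3 control shRNA libraries, at 350, 374 and 418. The pair shares no exonic base, and its windows are printed above.

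ZBED5-AS1 fell by 1.11 (SE 0.16, edgeR adjusted p = 1.87e-05), and ZBED5, a gene derived from a transposase, rose by 0.82 (SE 0.14, edgeR adjusted p = 9.65e-05). With offsets the rise of ZBED5 was 0.21 and lost its call, while ZBED5-AS1 was at −1.31. ZEB1, a repressor of epithelial genes, had 20.2, 18.1 and 19.1 CPM in circPRKAA1 shRNA libraries and 5.29, 7.25 and 7.17 CPM in control shRNA libraries and rose by 1.53 (SE 0.13, edgeR adjusted p = 5.16e-08). ZEB1-AS1 had 5.93, 5.69 and 6.34 CPM against 7.97, 9.75 and 6.05 CPM. Its fall of 0.41 (SE 0.17, edgeR adjusted p = 0.0424) comes with overlapping groups and was lost in 8 of 15 alternatives.

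**Figure D3:**
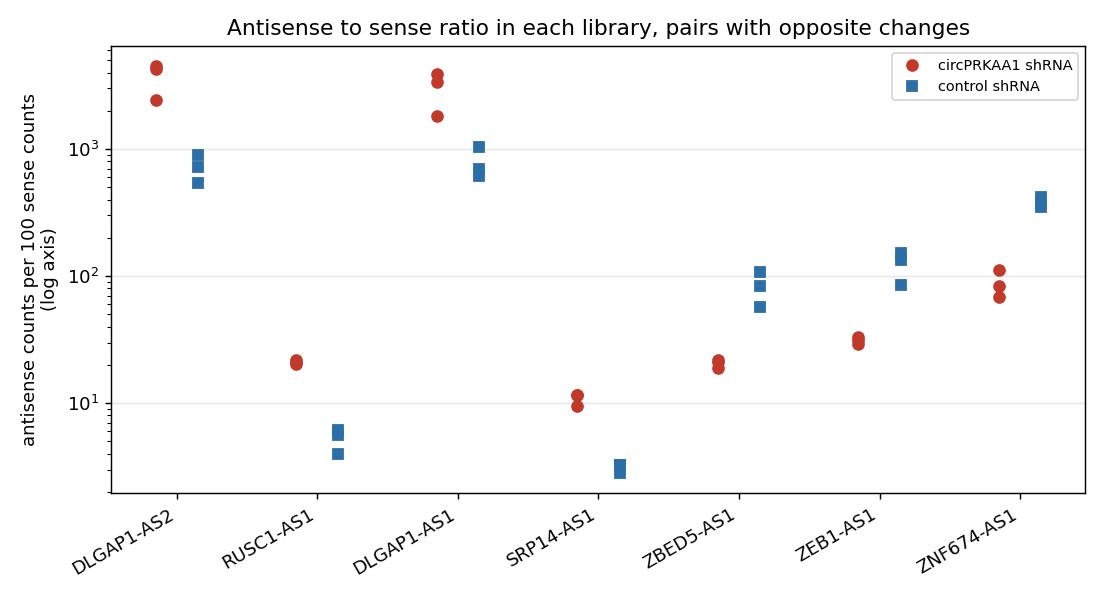
Antisense counts per 100 sense counts in each library (log axis) for 7 pairs among the largest opposite changes, with circles for circPRKAA1 shRNA and squares for control shRNA. The groups do not overlap in any of these pairs, as for RUSC1-AS1 at 20.5 to 21.7 against 4.01 to 6.17. The pairs were chosen by opposite calls in these same libraries, so this separation follows largely from the choice.

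Members that share a partner gave different pictures. DLGAP1-AS1 and DLGAP1-AS2 both lie inside DLGAP1, a scaffold gene of synapses that had 7, 7 and 13 counts in circPRKAA1 shRNA libraries and 20, 26 and 15 in control shRNA libraries. They rose by 0.63 (SE 0.12, edgeR adjusted p = 0.000195) and 1.05 (SE 0.13, edgeR adjusted p = 2.74e-06), while DLGAP1 fell by 1.23 (SE 0.39, edgeR adjusted p = 0.00993), a call lost with limma. PAXIP1-AS1 and PAXIP1-AS2, chosen after their values were seen, lie at the start and at the end of PAXIP1, a gene of the DNA damage response, and moved in opposite directions. PAXIP1-AS1 had 8.43, 7.75 and 9.69 CPM in circPRKAA1 shRNA libraries and 13.9, 12.5 and 14.2 CPM in control shRNA libraries (log2 −0.65, SE 0.13, edgeR adjusted p = 0.000282). PAXIP1-AS2 had 6.52, 5.47 and 6.17 CPM against 3.21, 3.49 and 3.64 CPM (log2 0.81, SE 0.16, edgeR adjusted p = 0.000349), but its call was lost under the offsets (0.25, edgeR adjusted p = 0.178, the highest of 15 alternatives). PAXIP1 itself fell by 0.96 (SE 0.11, edgeR adjusted p = 1.40e-06).

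Of the antisense RNAs beside genes of the lipid axis and of liver identity, SREBF2-AS1 is described here, and HNF4A-AS1 above. SREBF2-AS1 had 93, 83 and 96 counts in circPRKAA1 shRNA libraries and 109, 109 and 92 in control shRNA libraries, with overlapping groups and a log2 fold change of −0.27 (SE 0.17, edgeR adjusted p = 0.171). SREBF2, whose window is printed above, had 238, 269 and 265 CPM against 292, 283 and 276 CPM, and its log2 fold change of −0.14 (SE 0.07, edgeR adjusted p = 0.0909) did not pass although the groups did not overlap, and it was 0.15 with TPM scaling.

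By arrangement, 87 members were head to head with their partner (starts at most 1000 bases apart, with or without overlap). Of the rest, 47 were nested, 47 overlapped the partner at 3′ ends, 38 at 5′ ends and 5 did not overlap it. Of 49 well-counted head to head members 12 rose (24.5%) and 19 fell (38.8%), with a median log2 fold change of −0.11. Nested members (31) had 10 rises (32.3%) and 7 falls (22.6%), with a median of 0.09. Members overlapping at 3′ ends (30) had 8 rises (26.7%) and 9 falls (30%), with a median of 0.03. Those overlapping at 5′ ends (24) had 9 and 9 (37.5% each), with a median of −0.01. Of all genes of like depth 35.4% rose and 37.7% fell, with a median of −0.02. The correlation with the partner was 0.20 for head to head pairs (48 tested), 0.48 for nested pairs (27), 0.22 for pairs overlapping at 3′ ends (25) and 0.43 for those overlapping at 5′ ends (23), as descriptions. No difference between arrangements was tested.

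Base composition and exonic overlap moved with the changes. Members that rose had a median GC content of 45.7%, those that fell 51.9% and those that did not pass 48.1%. The same trend ran through all genes, whose median log2 fold change was 0.52 at a GC content up to 40% and −0.41 above 60%, beside 0.57 (13 members) and −0.19 (13 members). The 35 members without an exonic base on the other strand had 7 rises, 20 falls and a median of −0.43, whereas the other 105 had 33 rises, 28 falls and a median of 0.10. Under the offsets these medians were −0.53 and −0.11, and with TPM scaling −0.14 and 0.39. Over all genes with a mean of at least 60 counts, 35.4% rose and 37.7% fell under TMM. The groups of 35 and 105 also differed in exonic length, with medians of 2905 and 5308 bases, and were formed after the values were seen. The part of GC content, length and overlap in these differences was not tested.

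**Figure D4:**
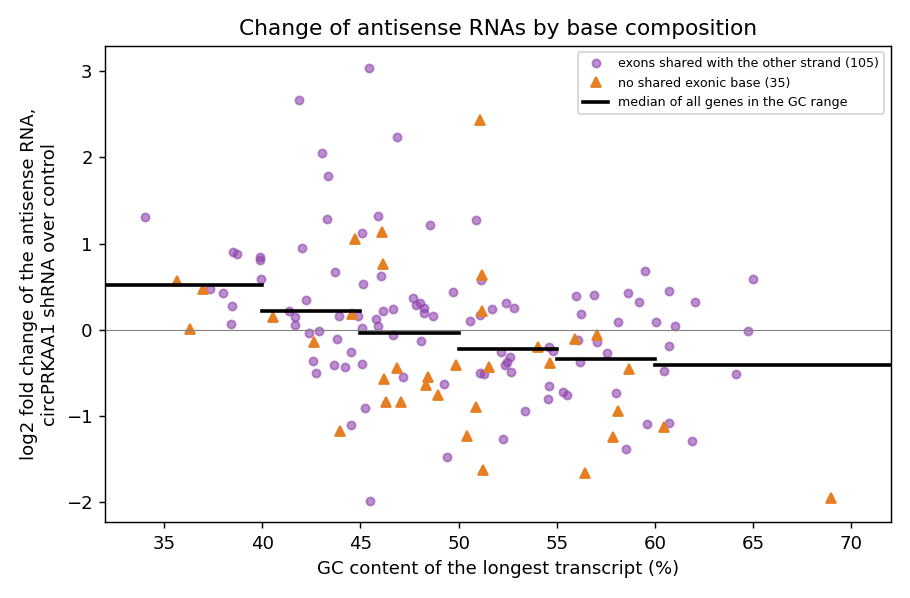
Log2 fold change (circPRKAA1 shRNA over control shRNA) of 140 antisense RNAs against the GC content of their longest transcript, with triangles for the 35 without an exonic base on the other strand and circles for the other 105. Black lines give the median of all well-counted genes in each GC range, 0.52 up to 40% and −0.41 above 60%.

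Among the 88 members with a mean under 60 counts, 19 reached 30 counts in 3 libraries only through the circPRKAA1 shRNA group and 3 only through the control shRNA group, so their direction is partly set by the choice of members. FAM13A-AS1 had 65, 75 and 73 counts in circPRKAA1 shRNA libraries and 8, 11 and 9 in control shRNA libraries. OSMR-AS1, beside a receptor chain for oncostatin M, had 86, 78 and 76 against 16, 14 and 7, and HPN-AS1, beside the liver protease hepsin, had 31, 36 and 43 against 7, 9 and 11. On the other side, RBM15-AS1 had 10, 27 and 6 counts against 34, 35 and 32. At the edge of the rule, KIZ-AS1 (50, 30 and 43 counts in circPRKAA1 shRNA libraries, 6, 13 and 15 in control shRNA libraries) and SPAG5-AS1 (40, 16 and 29, against 29, 30 and 32) were just inside. JMJD1C-AS1 (29, 32 and 28, against 25, 25 and 43) and COA6-AS1 (14, 20 and 13, against 34, 29 and 38) were just outside.

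Of 21 factors that degrade nuclear RNA 7 rose (33.3%), 9 fell (42.9%) and 5 did not pass, beside 36.1% and 32.4% of all tested genes or 35.4% and 37.7% of those of like depth, with a median log2 fold change of −0.13 against 0.05 for all tested genes. The falls included subunits of the exosome ring, with EXOSC5 at 15.1 ± 2.09 CPM in circPRKAA1 shRNA libraries and 50.5 ± 3.78 CPM in control shRNA libraries (SD, n = 3 each), a fall of 1.74. Among other exosome subunits, EXOSC4 fell by 1.41, EXOSC2 by 1.08, EXOSC6 by 0.83 and EXOSC8 by 0.35. By contrast, EXOSC9 rose by 0.25 with overlapping groups, and EXOSC7 (−0.14) did not pass. The rises included ZFC3H1 (1.86), which links polyadenylated nuclear RNA to the exosome, the nuclease DIS3 (0.89) and RBM7 (0.73), a part of the NEXT complex that guides the exosome to new transcripts. Of 15 proteins that bind or process double-stranded RNA, 5 rose (33.3%) and 4 fell (26.7%), with a median of −0.06. DDX58, a sensor of viral RNA, rose by 1.72 and the nuclease DICER1 by 0.63, while TARBP2, a partner of DICER1, fell by 0.58. All these calls are at an edgeR adjusted p under 0.05.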

How the data were processed

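RNA from 6 HepG2 libraries was sequenced. Per the file headers, the authors deposited whole-number counts per gene, an exonic length, and FPKM. No aligner, counting program or strand setting is given in the sources used here. GRCm38, mm10 and hg18 appear in the submitters' processing notes with no role stated. Of the identifiers 96.3% were found in GENCODE 29 (GRCh38), and 99.9% of these overlapped the coordinates there, which are used here. Of the deposited FPKM columns, 1 names no replicate and was not used, so FPKM values were computed from counts, lengths and totals. The shRNA labels of the knockdown samples read circPRKAA1, circPRKAA2 and circPRKAA3, and the titles were followed.

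The filter was filterByExpr with a minimum count of 10 and a minimum total of 15, and counts were scaled by TMM and tested with edgeR 4.0.16 (R 4.3.3) over 14990 genes in all 6 libraries, 3 against 3, with Benjamini-Hochberg adjustment and a threshold of 0.05. The test code was run on simulated counts in which few genes changed, unlike these data. That run cannot vouch for the calls made here. CPM carries the TMM scaling, and depth was 16284262 to 20282496 counts per library. Fold changes are circPRKAA1 shRNA over control shRNA on the log2 scale.

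Alternatives were other scalings, no count filter, DESeq2 1.42.0, limma 3.58.1 on log2(FPKM + 1), offsets for GC content and exonic length from a smooth curve (mgcv 1.9.3), the replicate number as a block, each library left out, and count minimums of 10 and 100 for members. The split by exonic overlap was added after the data were seen. Named are the 10 members of highest CPM, the 10 largest rises and falls among members with a mean of at least 60 counts that passed, up to 8 pairs with opposite calls, antisense RNAs of axis and liver identity genes, members at the threshold, and the partners of all these. Partners are tested where they passed the filter. Members, lists and rules were chosen with earlier results of these data known. The class overlapping at 5′ ends was split off from the planned arrangements afterwards. Some genes that these rules name are not reported here.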

Additional observations from a re-analysis of the deposited data

How the results depend on the processing

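The median log2 fold change of the 140 members (0.02) was −0.18 with offsets for GC content and length, 0.31 with TPM scaling, 0.21 with library totals, 0.12 with limma on log2(FPKM + 1), −0.19 with quantile normalization, 0.15 with a count minimum of 100, −0.43 for the 35 members without an exonic base on the other strand and −0.065 to 0.018 with 1 library left out. Members that rose (40) numbered 66 with TPM scaling, 72 with a minimum of 10, 17 with a minimum of 100 and 7 without shared exonic bases. Those that fell (48) numbered 27 with TPM scaling, 10 with a minimum of 100 and 20 without shared exonic bases. The minimums and the split, the latter at 35 members, also change how many members are counted. Their numbers are therefore not out of 140 and do not measure the processing alone. With 1 library left out, 32 to 37 rose and 42 to 49 fell. The log2 fold change changed sign, with a call under 1 of both settings, for CCDC18 (−0.49), OIP5-AS1 (−0.65) and PDCD4 (−0.11) with offsets, for FGD5-AS1 with TPM scaling (0.28), library totals (0.18) and limma (0.17), and for RNASEH1 with TPM scaling (0.24). Values without a call under either setting also changed sign, for DHRS4-AS1 (−0.15 with offsets), TP73-AS1 (0.093) and SREBF2-AS1 (0.029) with TPM scaling, and in further settings for SREBF2, CCDC18, FGD5-AS1, OIP5-AS1 and RNASEH1. The causes were not tested. Of the other values of single genes under alternatives, 1083 kept their side of the threshold, with the same direction where called, 36 lost a call and 14 gained one. Deviations from the group means had correlations of −0.15 to 0.04 between same-numbered libraries and of −0.07 to 0.16 between others. From 3 libraries per group these values cannot decide whether the numbers pair samples. With the replicate block 5216 genes were higher and 4627 lower, against 5405 and 4852 without it, with 37 members higher and 42 lower and a median of 0.01. Low counts limit members near the minimum, where a library holds about 30 counts.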
